A study of Mus musculus with 21 samples.

Results

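The 10 genes described here encode the growth factors and inflammatory cytokines by which a tumour can reach the myeloid cells of the marrow and of the tumour itself: Csf1, Csf2, Csf3, Il34, Kitl, Il6, Il1a, Il1b, Tnf and Lif. They were named by symbol, with earlier results of these data known. Of the 10, 9 are among the 19241 genes listed for the tumours. Csf2 is not listed and has no value here. The libraries came from mammary tumours of MMTV-PyMT mice, in which a mammary tumour virus promoter drives the polyoma middle T oncogene in the mammary epithelium. All 4 tumour groups carry this transgene. They are sedentary mice at week 12, physically active mice at week 12, sedentary mice at week 18 and physically active mice at week 18, with 3 tumours labelled as biological replicates in each. The labels do not say how the activity was given, nor the sex or the age in other terms than the week. The series of 21 libraries also holds hematopoietic stem cells labelled MMTV-PyMT, with 3 libraries each from sedentary and from physically active mice at week 12 and, at week 14, from sedentary recipients of a transplant from active mice. They enter none of the tumour comparisons.

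The genes act at different steps. Csf1 and Il34 both bind the receptor Csf1r and keep macrophages alive, Csf2 and Csf3 drive the output of granulocytes and macrophages, and Kitl, the stem cell factor, holds progenitors through the receptor Kit. Il6 and Lif signal through the shared receptor chain Il6st to Stat3, while Il1a, Il1b and Tnf act through NF-kappaB and induce further cytokines in the cells they reach. Many of their messages are short-lived, because AU-rich elements in the 3′ UTR recruit decay factors such as the protein encoded by Zfp36.

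A value below is a normalised read count, that is, the reads of a gene divided by 1 factor per library, and 1 read was worth between 0.874 and 1.20 in the 12 tumours. Reads of the listed genes, recovered from these values, totalled 20838963 to 28973775 per tumour library. Epithelial markers were present in every tumour, with all 10 of the list (Epcam, Krt8, Krt18 and others) above 0. Some libraries stood apart. Active replicate 3 of week 12 had a mean log2(value + 1) of 10.4 for T cell and 11.4 for B cell markers, against at most 5.83 and 4.45 in the other 11 tumours. The same tumour had the highest adipocyte mean (14.4, next 12.3) and the highest endothelial mean (10.7, next 9.27). Its epithelial mean was the lowest of the 12, 12.0 against 12.3 to 13.4. The skeletal muscle mean was 11.8 to 12.7 in the 3 sedentary tumours of week 12 and 4.35 to 6.46 in the active ones. Sedentary replicate 1 of week 18 had the lowest macrophage mean of the 12, 9.65 against 10.3 to 11.1. In bulk tumours fewer cells of a type and less RNA per cell cannot be told apart.

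The 9 listed genes differed widely in abundance. Compared per kilobase of exon, the only scale on which levels are set between genes here, Csf1 and Kitl were highest, with medians over the 12 tumours of 314 and 284. Il34, Lif, Tnf and Il1b followed with medians of 70.4, 69.7, 40.5 and 33.1. Il1a, Csf3 and Il6 were lowest, with medians of 13.2, 5.06 and 1.47. Neighbours in this order were compared tumour by tumour with an exact sign-flip permutation test, two-sided, adjusted over the 8 neighbouring pairs. The order came from the same 12 tumours, so the data set which pairs were tested. The p-values do not allow for this. Kitl lay above Il34 in 12 of 12 tumours, with a median ratio of 4.44 and an adjusted p of 0.0039. Il1b lay above Il1a in 11 of 12 (median ratio 2.52, adjusted p = 0.0098, same exact test). The steps from Il1a to Csf3 and from Csf3 to Il6 also passed, with adjusted p of 0.033 and 0.034 by the exact test, but neither did without active replicate 3 of week 12 (0.055 for both, exact test). For the pairs Csf1 and Kitl, Il34 and Lif, Lif and Tnf, and Tnf and Il1b, the difference was within the spread between tumours. With the length of the longest transcript in place of all exons, Csf1 lay above Kitl (10 of 12 tumours, exact adjusted p = 0.0078).

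**Figure D1:**
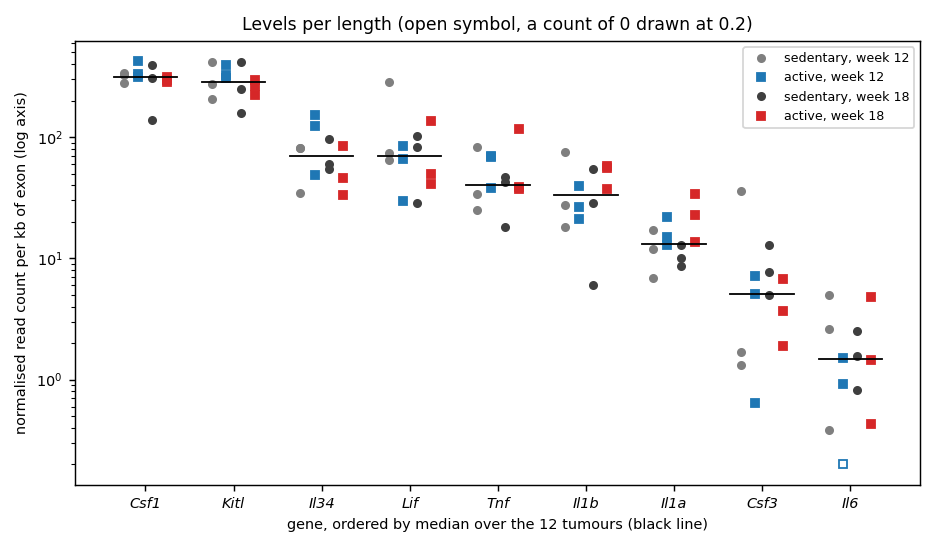
Normalised read count per kilobase of exon (log axis) of the 9 listed genes in each of the 12 tumours, by group, with the median as a black line. Csf1 and Kitl have the highest medians and Il6 the lowest, and the only count of 0, Il6 in active replicate 2 of week 12, is drawn as an open symbol at 0.2.

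The letters that govern these messages differ among the genes. In GENCODE M21 transcripts (GRCm38), the nonamer TTATTTATT, the core of an AU-rich element, is in the 3′ UTR of 3 of the 10 genes, Csf2 with 4, Tnf with 5 and Lif with 2 copies, overlapping copies counted. Of 15363 coding genes of the tumour tables with a 3′ UTR, 7.88% hold it. The shorter ATTTA is in all 10, from 1 copy in Il34 to 14 in Kitl, against a median of 1 over those genes, and longer 3′ UTRs such as that of Kitl (4435 bases) hold more by length alone. Genes without the nonamer also hold several copies of ATTTA, with 10 in Il6, 6 in Csf3 and 4 in Il1b. A 30-base stretch is shown for each of the 3 genes with a nonamer, with every ATTTA in capitals (DNA letters, 5′ to 3′).
Csf2: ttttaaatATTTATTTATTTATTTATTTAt
Tnf: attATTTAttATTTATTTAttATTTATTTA
Lif: aaaggggcctttATTTAttATTTAaaactt
The runs of Csf2 and Tnf each hold 5 copies of ATTTA, which form 1 overlapping chain in Csf2 only, and the run of Lif holds 2. Of the 3 genes, Tnf and Lif had values in every tumour and Csf2 is the gene not listed.

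RefSeq promoters of GRCm38.p6 were at hand for 8 of the 10 genes (none for Csf3 and Il34). The 250 bases before the start are printed for Csf1, the gene with the highest median per kilobase of exon, and for Il1a and Il1b. Il1a and Il1b are neighbours on chromosome 2 and the pair with the largest differences at week 18 among the 9 with all libraries in. On both strands, the TATA box letters TATAAA, the NF-kappaB letters GGGANNNTCC and the AP-1 letters TGANTCA were searched, and matches are in capitals. The Csf1 window is chr3:107760470-107760719, the Il1a window chr2:129309973-129310222 and the Il1b window chr2:129371140-129371389, all on the minus strand and printed 5′ to 3′ of the gene.
Csf1: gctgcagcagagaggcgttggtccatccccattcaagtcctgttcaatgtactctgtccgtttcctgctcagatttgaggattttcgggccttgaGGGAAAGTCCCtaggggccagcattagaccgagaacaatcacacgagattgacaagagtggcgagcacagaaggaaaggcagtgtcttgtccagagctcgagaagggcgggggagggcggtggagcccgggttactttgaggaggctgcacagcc
Il1a: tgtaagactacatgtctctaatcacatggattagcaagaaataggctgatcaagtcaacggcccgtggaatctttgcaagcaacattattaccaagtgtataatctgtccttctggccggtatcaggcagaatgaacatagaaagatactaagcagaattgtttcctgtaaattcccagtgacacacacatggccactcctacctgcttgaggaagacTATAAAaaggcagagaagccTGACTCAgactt
Il1b: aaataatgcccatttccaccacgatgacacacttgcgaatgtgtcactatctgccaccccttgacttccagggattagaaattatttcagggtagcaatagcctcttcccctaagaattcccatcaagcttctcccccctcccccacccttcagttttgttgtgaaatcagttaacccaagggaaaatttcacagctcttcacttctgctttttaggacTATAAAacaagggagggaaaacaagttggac
Csf1 has an NF-kappaB match at 155 bases before the start, which reads on both strands, so that 2 overlapping matches fall on the same letters. Il1a has a TATA match at 32 and an AP-1 match at 12 bases before the start, and Il1b a TATA match at 31. Of the other windows, Kitl holds TATA and NF-kappaB matches, Tnf a TATA match and Il6 NF-kappaB and AP-1 matches. Lif holds an AP-1 match, and the Csf2 window none of the 3. The Csf2 window, chr11:54249900-54250149, stops short of the GENCODE start at 54249667 (minus strand), and the bases between were not searched. The Kitl window, chr10:100015571-100015820, runs past the GENCODE start at 100015630 (plus strand). In 32851 promoters of the same length, 12.4% hold the TATA letters, 3.86% the NF-kappaB letters and 6.75% the AP-1 letters. These are matches of letters only.

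Tumours of active mice were then compared with those of sedentary mice at each week with limma on log2(value + 1), with p-values adjusted over all genes tested. None of the 9 genes passed the adjusted threshold of 0.05 at week 12, where 0.517% of 19162 genes did, or at week 18, where 0% of 18939 did. Without adjustment, 0 of 9 had a p under 0.05 at week 12 (4.09% of all genes) and 1 of 9, Il1a, at week 18 (5.97% of all genes). The 3 active and 3 sedentary values did not overlap for 0 of 9 at week 12 (9.13% of all genes) and for 1 of 9, again Il1a, at week 18 (13.6% of all genes). These shares are near the background. The estimate was higher in active tumours for 5 of 9 genes at week 12 (median log2 difference 0.16, against 0.01 over all genes) and for 7 of 9 at week 18 (median 0.07, against 0.01). Without sedentary replicate 1 of week 18, the latter count was 4 of 9 and the median -0.22. The adjusted p of the 9 genes lay between 0.970 and 0.978 at week 12 and between 0.824 and 0.988 at week 18. Under edgeR and DESeq2 on the recovered reads none of the 9 passed at either week, and edgeR called 76 genes in all at week 12 and 0 at week 18, DESeq2 208 and 52. In the authors' deposited table an adjusted p under 0.05 was given for 204 genes at week 12 and 41 at week 18, and no member was among them.

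**Figure D2:**
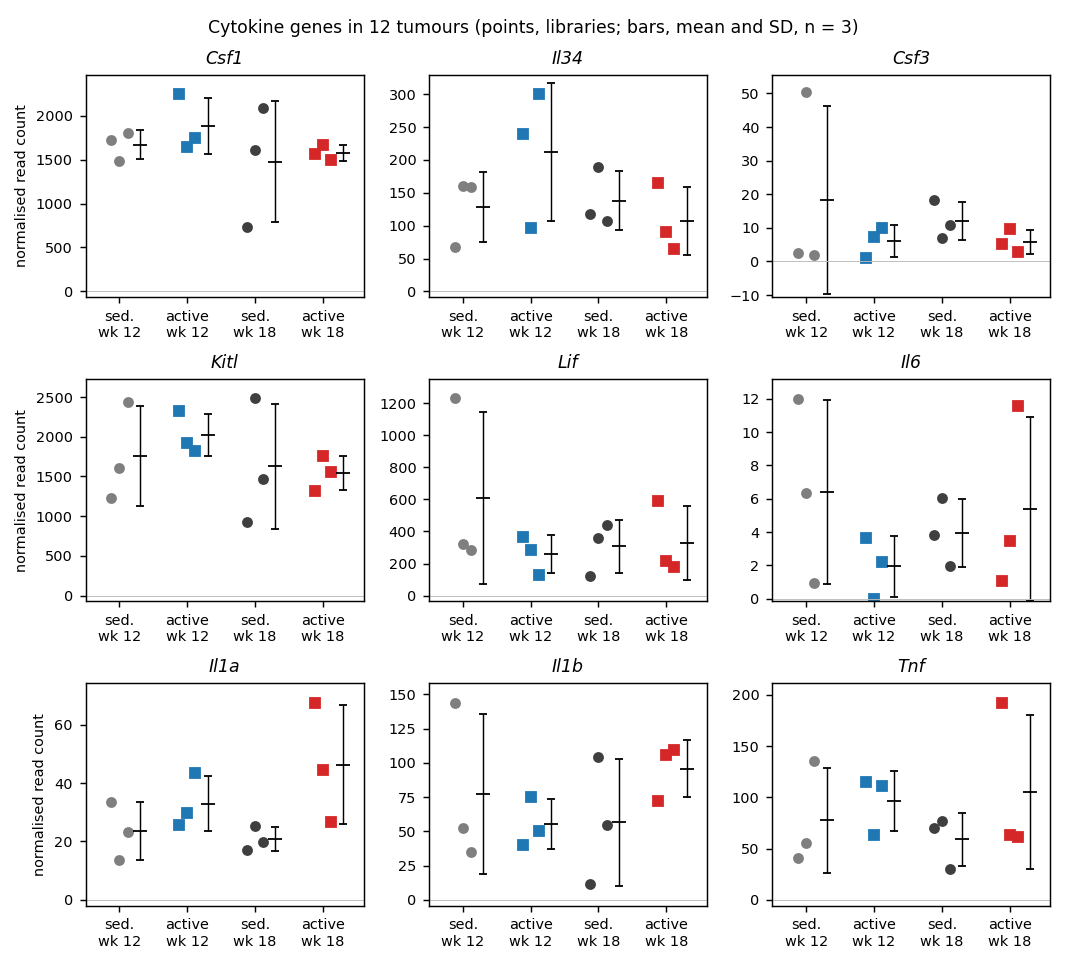
Normalised read counts of the 9 listed genes in each tumour by group (points), with the mean and SD of the 3 libraries beside them, on a separate linear axis per gene. The active and sedentary points overlap in every panel and week except Il1a at week 18, where 26.7 to 67.6 stood above 17.2 to 25.3.

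Csf1 (ENSMUSG00000014599, chromosome 3, 107741048 to 107760469, minus strand), the main macrophage growth factor, had values of 1722, 1484 and 1800 in the sedentary and 2244, 1647 and 1746 in the active tumours of week 12. The week 18 values were 730, 1610 and 2092 in the sedentary and 1565, 1666 and 1490 in the active tumours. The groups overlapped at both weeks, and the widest spread was among the sedentary tumours of week 18, with replicate 1 lowest of all 12. Group means were 1669 ± 165 and 1879 ± 320 at week 12, then 1477 ± 691 and 1574 ± 88.3 at week 18 (sedentary and active, SD, n = 3). The log2 difference of active minus sedentary was 0.16 (95% confidence interval -0.31 to 0.63) at week 12 and 0.22 (-0.81 to 1.25) at week 18. Without sedentary replicate 1 the week 18 difference was -0.22. Csf1 was thus the gene bounded most closely at week 12.

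Il34 (ENSMUSG00000031750, chromosome 8, 110741829 to 110805924, minus strand), the second ligand of Csf1r, had 67.2, 160 and 158 in the sedentary and 240, 95.8 and 300 in the active tumours of week 12. At week 18 the values were 118, 189 and 107 in sedentary and 164, 90.9 and 65.1 in active tumours. Both active extremes, 300 at week 12 and 65.1 at week 18, were the extremes of the 12 tumours. The log2 difference was 0.67 (-0.76 to 2.09) at week 12, and 0.26 without sedentary replicate 1. Over the alternatives it lay between 0.26 and 1.16. The week 18 value was -0.43 (-1.46 to 0.61). Per kilobase of exon Csf1 exceeded Il34 in all 12 tumours, by 2.16 to 9.51 times with a median of 3.88. The receptor that both ligands share, Csf1r, had values of 1291 to 4117 over the 12 tumours, and Ptprz1, another receptor of Il34, 76.9 to 505.

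Csf3 (ENSMUSG00000038067, chromosome 11, 98701263 to 98703629, plus strand), the granulocyte growth factor, was close to the counting limit. It had 2.40, 50.6 and 1.87 in the sedentary and 0.911, 7.21 and 10.04 in the active tumours of week 12. Values of week 18 were 18.2, 7.08 and 10.9 in sedentary and 5.20, 9.62 and 2.67 in active tumours. The value of 50.6 rests on 48 reads in 1 tumour, and 4 of the 12 tumours had 3 reads or fewer. Its log2 difference was -0.51 (-3.88 to 2.85) at week 12, and 0.84 without the sedentary replicate 2 that held the 48 reads. At week 18 it was -0.98 (-2.23 to 0.28), with the groups overlapping. The receptor Csf3r had 56.4 to 133 over the 12 tumours.

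Kitl (ENSMUSG00000019966, chromosome 10, 100015630 to 100100416, plus strand), the ligand of Kit, had 1223, 1605 and 2443 in the sedentary and 2326, 1917 and 1825 in the active tumours of week 12. At week 18 the values were 929, 2482 and 1468 in sedentary and 1322, 1755 and 1559 in active tumours. Sedentary tumours spread more widely than active ones at both weeks, with an SD of 624 against 266 and then 789 against 217. The log2 difference was 0.25 (-0.48 to 0.99) at week 12 and 0.03 (-0.93 to 1.00) at week 18. The week 18 difference was -0.31 without sedentary replicate 1, again the lowest tumour. Kit itself had 4718 to 19712 in the 12 tumours.

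Lif (ENSMUSG00000034394, chromosome 11, 4257557 to 4272514, plus strand), a cytokine of the Il6 family, had 1230, 321 and 282 in the sedentary and 365, 285 and 128 in the active tumours of week 12. In week 18 it stood at 124, 360 and 441 in sedentary and 593, 216 and 177 in active tumours. One tumour, sedentary replicate 1 of week 12, had more than any other. The log2 difference was -1.02 (-2.80 to 0.77) at week 12, and -0.34 without that tumour. Over the alternatives it lay between -1.40 and -0.34. The week 18 difference was 0.07 (-1.62 to 1.76). Without sedentary replicate 1 of week 18 the later difference was -0.49.

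Il6 (ENSMUSG00000025746, chromosome 5, 30013114 to 30019981, plus strand), the acute phase and myelopoietic cytokine, was the lowest of the 9. Its values were 12.0, 6.32 and 0.936 in the sedentary and 3.64, 0 and 2.23 in the active tumours of week 12. At week 18 they were 3.83, 6.07 and 1.98 in sedentary and 1.04, 3.50 and 11.6 in active tumours. These rest on 0 to 13 reads per tumour, and the count of 0 in active replicate 2 allows a value of up to 3.09 (3 reads, counting error only). The log2 differences of -1.21 (-3.49 to 1.08) at week 12 and 0.06 (-1.76 to 1.88) at week 18 say little at this depth, and a change of Il6 was not detectable. The receptor chain Il6st had 2660 to 10638.

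Il1a (ENSMUSG00000027399, chromosome 2, 129299610 to 129309972, minus strand) encodes the cell-bound and alarm form of interleukin 1. At week 12 it had 33.6, 13.7 and 23.4 in the sedentary and 25.5, 29.9 and 43.5 in the active tumours. At week 18 it had 17.2, 25.3 and 19.8 in the sedentary and 67.6, 44.6 and 26.7 in the active tumours. The week 12 groups overlapped, whereas at week 18 every active tumour lay above every sedentary one, the closest pair being 26.7 and 25.3. The means at week 18 were 20.8 ± 4.12 and 46.3 ± 20.5 (sedentary and active, SD, n = 3), from 63 and 146 reads in all. The log2 difference was 0.52 (-0.44 to 1.48) at week 12 and 1.04 (0.11 to 1.97, SE 0.37) at week 18. The week 18 difference had an unadjusted limma p of 0.034, and with an adjusted p of 0.824 by limma it did not pass the threshold. Over the alternatives the difference lay between 0.72 and 1.38 and the limma, edgeR or DESeq2 adjusted p between 0.567 and 0.944. With the replicate number as a block the unadjusted limma p was 0.056.

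Neutrophil markers were measured beside Il1a at week 18. The mean log2(value + 1) of the 6 listed of 10 neutrophil markers was 5.33 to 5.54 in the active and 3.36 to 4.62 in the sedentary tumours of week 18, and did not overlap. Of the 6, 4 had every active tumour above every sedentary one. Of all genes, 13.6% did not overlap at week 18, in either direction. S100a8 had 79.1 to 197 in active and 11.5 to 46.6 in sedentary tumours, and S100a9 had 11.4 to 26.0 and 0 to 5.06. Cxcr2 had 2.67 to 9.36 and 1.91 to 2.02, and Mmp8 5.35 to 30.2 and 0 to 3.04. The sedentary values of S100a9, Cxcr2 and Mmp8 were near the counting limit. The other 2 overlapped, Retnlg with 1.04 to 5.35 in active and 0.957 to 5.95 in sedentary tumours and Ltf with 7120 to 21008 and 3432 to 41161. The summed level of the list overlapped too, with 7266 to 21128 in active and 3451 to 41218 in sedentary tumours, and nearly all of it was Ltf, which the mammary epithelium also makes. Which cells made each of these markers was not measured. Csf3r, the receptor of Csf3 and not on this list, had 81.8 ± 21.4 in active and 85.3 ± 27.1 in sedentary tumours of week 18 (SD, n = 3). Mmp8 was at 0 in sedentary replicate 1 and S100a9 in sedentary replicate 3. The macrophage mean overlapped, with 10.3 to 10.7 in active and 9.65 to 11.0 in sedentary tumours. The part of these cells in the Il1a values was not tested.

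Il1b (ENSMUSG00000027398, chromosome 2, 129364570 to 129371139, minus strand), the secreted form that caspase 1 cuts to its active state, lies next to Il1a on the chromosome. It had 144, 52.7 and 34.6 in the sedentary and 40.1, 75.2 and 50.2 in the active tumours of week 12. The later values were 11.5, 104 and 54.5 in sedentary and 71.8, 106 and 110 in active tumours. The groups overlapped at both weeks, and the sedentary tumours of week 18 spanned 11.5 to 104. The log2 difference was -0.26 (-1.71 to 1.18) at week 12, and 0.31 without sedentary replicate 1, the tumour with 144. At week 18 it was 1.19 (-0.82 to 3.19), and 0.32 without sedentary replicate 1, the tumour with 11.5. Over the alternatives the week 18 difference lay between 0.32 and 1.85. Within the same-numbered pairs of week 18 the active tumour was higher in 3 of 3, as for Il1a and no other member, and 16.1% of all genes had this order. With the replicate number as a block the limma adjusted p of Il1b was 0.694. Casp1 had 534 to 2441 in the 12 tumours, and the decoy ligand Il1rn 13.4 to 285.

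Tnf (ENSMUSG00000024401, chromosome 17, 35199381 to 35202007, minus strand), the archetype of the inflammatory cytokines, had 40.8, 55.9 and 136 in the sedentary and 115, 62.8 and 112 in the active tumours of week 12. At week 18 it had 69.9, 76.9 and 29.7 in sedentary and 192, 62.9 and 61.5 in active tumours. The active mean at week 18, 106 ± 75.2 (SD, n = 3), was raised by replicate 1 alone, and the other active tumours lay inside the sedentary range. The log2 difference was 0.45 (-0.84 to 1.75) at week 12, and 0.09 without sedentary replicate 1. The week 18 value was 0.73 (-0.77 to 2.23), and 0.19 without active replicate 1. Over the alternatives the difference lay between 0.09 and 0.95 at week 12 and between 0.19 and 1.01 at week 18. Tnfrsf1a, its widely expressed receptor, had 2752 to 4404, and Adam17, the protease that releases it from the membrane, 2257 to 3241.

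Whether the effect of activity itself differed between weeks was tested over all 12 tumours as an interaction. None of the 9 genes passed, against 0.0104% of 19241 genes, and 0 of 9 had an unadjusted p under 0.05, against 6.33%. The largest estimates were 1.45 (-0.91 to 3.81) for Il1b, 1.27 (-1.52 to 4.06) for Il6, 1.09 (-1.26 to 3.43) for Lif and -1.09 (-2.76 to 0.57) for Il34, each on the log2 scale as week 18 minus week 12. By edgeR no gene of the series passed this test (1604 had an unadjusted p under 0.05), and by DESeq2 174 did, with no member among them. Between weeks, averaged over activity, again 0 of 9 passed (0.0052% of all genes) and 0 of 9 had an unadjusted p under 0.05 (13.2% of all genes). These differences, week 18 minus week 12, lay between -0.39 for Il34 and 0.39 for Csf3, though Csf3 was -0.30 with edgeR and -0.32 with DESeq2 on recovered reads. For Csf1 the interval was -0.80 to 0.25 and for Kitl -0.84 to 0.29.

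**Figure D3:**
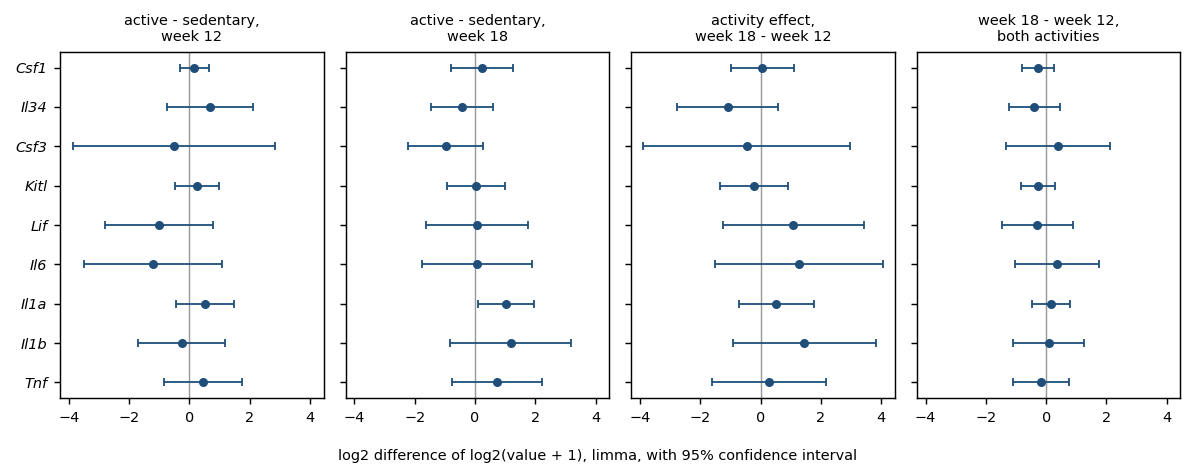
Log2 differences of the 9 listed genes with 95% confidence intervals from limma, on log2(value + 1), in the 4 comparisons. Only the interval of Il1a at week 18, 0.11 to 1.97, leaves out 0, and its adjusted p was 0.824.

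The rest of the pathway was described from lists of receptors, decoys and inhibitors, processing and release factors, other hematopoietic cytokines and target genes. These lists, too, were chosen with earlier results of these data known. Of 63 such genes 60 are listed, and none passed the adjusted threshold in any of the 4 comparisons. At week 12, 10 of 14 receptors had a higher estimate in active tumours (median log2 difference 0.40) and 6 of 16 target genes did (median -0.23), against a median of 0.01 over all genes. Without active replicate 3 of week 12, the tumour with high lymphocyte, adipocyte and endothelial markers, the receptor median was 0.12 and the target median -0.05. Over all libraries left out at week 12 the target median lay between -0.43 and -0.05. The smallest p at week 12 belonged to Spp1, osteopontin, with means of 17083 ± 3288 in sedentary and 6479 ± 3161 in active tumours (log2 difference -1.51, limma adjusted p = 0.802). Thpo, thrombopoietin, followed with 15.7 ± 6.37 and 38.7 ± 18.9 (log2 difference 1.22, limma adjusted p = 0.970).

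At week 18 most estimates of the target genes had the other sign. The estimate was higher in active tumours for 15 of 16 of them, with a median of 0.73 against 0.01 over all genes, and for 7 of 14 receptors, with a median of 0.05. Without active replicate 1, or without sedentary replicate 1, 11 of 16 target genes were higher, with medians of 0.43 and 0.32. Of the receptors, 8 of 14 were higher without active replicate 1 (median 0.12). Without sedentary replicate 1 only 2 of 14 were, with a median of -0.41. The exception among the 16 was Cxcl2, a neutrophil chemokine, with 13.2 ± 3.48 in sedentary and 6.60 ± 1.54 in active tumours (log2 difference -0.89, limma adjusted p = 0.824). Ptprz1 had 184 ± 14.5 and 125 ± 12.8 (log2 difference -0.56, limma adjusted p = 0.824). Ptgs2, the inducible prostaglandin synthase, had 56.4 ± 46.0 and 339 ± 199 at week 18 after 275 ± 334 and 78.5 ± 59.8 at week 12. Its interaction of 4.22 (0.61 to 7.83) had the smallest p among the pathway genes, 0.027 by limma, with an adjusted p of 0.743. Lifr, the receptor of Lif, had 1466 ± 231 and 1845 ± 657 at week 12 and 1580 ± 229 and 895 ± 328 at week 18, with an interaction of -1.18 (-2.22 to -0.13, limma adjusted p = 0.758). Between weeks, Csf2ra, the receptor of the unlisted Csf2, was lower at week 18 in its estimate, by a log2 difference of -0.51 (-0.81 to -0.22, limma adjusted p = 0.288). Clcf1, a relative of Lif, had a log2 difference of -1.58 between weeks (limma adjusted p = 0.317). Its means were 166 ± 17.8 and 505 ± 585 at week 12, then 126 ± 45.6 and 54.7 ± 30.4 at week 18 (sedentary and active). The SD of the active tumours of week 12 thus exceeded their mean.

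**Figure D4:**
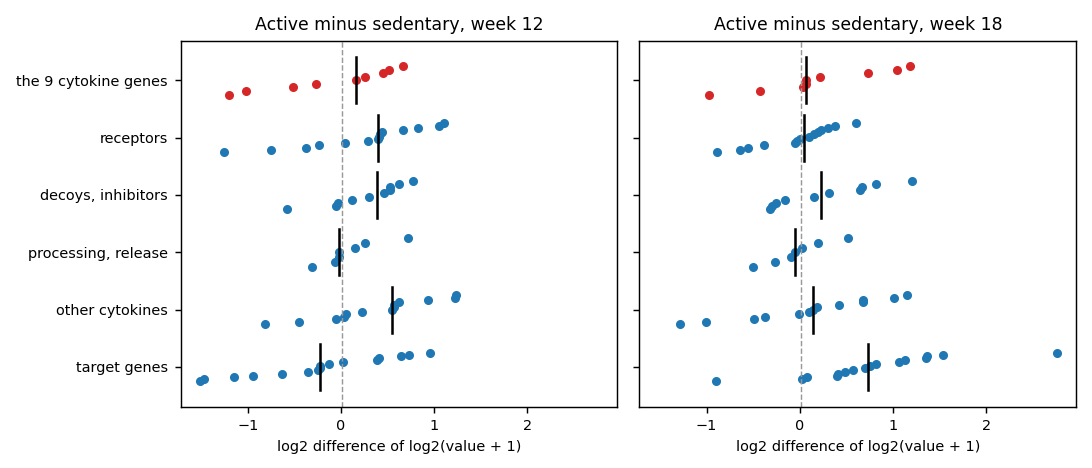
Log2 differences of active minus sedentary tumours at weeks 12 and 18 for the 9 listed genes (red) and the pathway lists (blue), 1 point per gene, with list medians as black lines and the median of all genes dashed. The target genes have a median of -0.23 at week 12 and 0.73 at week 18, and no point passed the adjusted threshold.

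The members were last set beside the markers of 5 cell types and beside each other, tumour by tumour. Of 45 relations with marker means and 36 between members, none passed an adjusted p of 0.05 in permutation tests with 100000 resamples, and 5 and 2 had an unadjusted p under 0.05. Csf1 and the macrophage mean had the highest r, 0.854 (rho 0.727, permutation p = 0.0021, adjusted p = 0.060, and 0.225 for rho), over 12 tumours. Without the 2 tumours farthest in the macrophage mean, sedentary replicate 1 and active replicate 1 of week 18, r was 0.522, so the relation rests in part on them. Kitl and the macrophage mean had r = 0.770 (rho 0.566, permutation adjusted p = 0.060, and 0.379 for rho) and 0.461 without the same tumours. Il1a and the neutrophil mean had r = 0.670 (rho 0.678, permutation adjusted p = 0.258, and 0.273 for rho) and 0.581 without the farthest ones. Between members, the highest were Csf1 with Kitl (r = 0.655, rho 0.406, permutation adjusted p = 0.531, r = 0.403 without the 2 farthest tumours) and Il34 with Tnf (r = 0.625, rho 0.650, permutation adjusted p = 0.531, r = 0.754 without them). The libraries carry no batch label, so no value within a batch can be given.

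**Figure D5:**
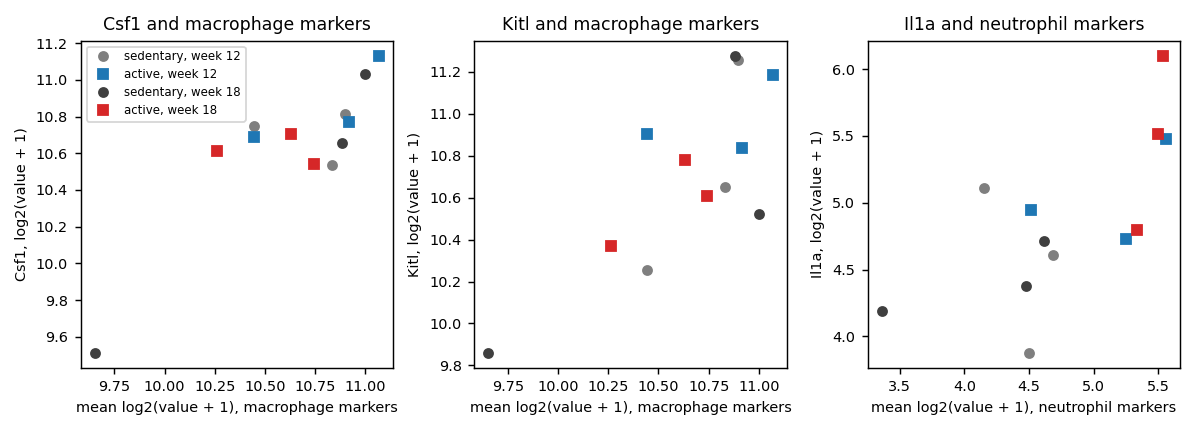
Log2(value + 1) of Csf1, Kitl and Il1a in each of the 12 tumours against the mean log2(value + 1) of macrophage or neutrophil markers. In the Csf1 and Kitl panels sedentary replicate 1 of week 18 sits alone at the lower left, and r falls from 0.854 to 0.522 and from 0.770 to 0.461 without it and 1 other tumour.

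Among 13638 genes with a mean of at least 50, the 3 most like each member over the 12 tumours were found by Pearson r on log2(value + 1), as a description with no test. For Csf1 these were Fes (0.962), a tyrosine kinase of myeloid cells, Cstf2t (0.937) and Ddx24 (0.935). Those of Kitl were Mkln1 (0.910), Mrc2 (0.908) and Tifab (0.896). Slc7a2 (0.930) and Slc12a4 (0.928) were among the 3 nearest to Il34. For Lif they were Zfp536 (0.911), Kit (0.898) and Mfsd10 (0.895), so that the receptor of Kitl followed Lif and not Kitl among the nearest 3. Il1a was nearest to Eif2b3 (0.893), Actr3 (0.886) and Vac14 (0.879), and Il1b to Retreg1 (0.931), St8sia6 (0.892) and Aga (0.889). Tnf was nearest to Sema6d (0.808), Alyref2 (0.801) and Col4a1 (0.796), and Csf3 to Snhg3 (0.872), Pwwp2a (0.853) and Ypel2 (0.794). No member was among the 3 nearest of another. Il1a, Csf3 and Il6, with means of 30.9, 10.6 and 4.43, were below 50 and so could not have been. Each r is the highest of many, and all share the 12 libraries.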

How the data were processed

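RNA was sequenced from 12 mammary tumours in 4 groups of 3. The authors' deposited tables give a signal per gene and library, and the values were whole reads divided by 1 factor per library (100% whole within 0.05 of a read). The deposited factors equal median-of-ratios factors over the 12 tumours, so both tables share 1 scale. The deposited tables also give the authors' log2 fold changes and p-values. The genome build is mm10 per the submitters' processing notes. The aligner, counter and annotation are not given in the sources used here. The deposited values are not whole counts, and limma 3.58.1 (R 4.3.3) was chosen as the main test. It was fitted to log2(value + 1) for genes that reached a mean of 1 in a group compared. Benjamini-Hochberg adjustment and a threshold of 0.05 were used. Tests on the recovered reads were possible too and were run as alternatives. Alternatives were edgeR 4.0.16 and DESeq2 1.42.0 on recovered reads, TMM scaling, other filters, a pseudocount of 0.1, a replicate block and leaving out each library. The p-values measure the spread between these libraries only. The fit was tested on simulated data in which 200 genes were given a log2 change of 3. It recovered 69% of them at week 12, 70.5% at week 18, 52.5% for the interaction and 92.5% between weeks. Unchanged genes called numbered 6 to 13. The changed genes were drawn from those with higher means than Csf3 and Il6. Replicate numbers correlated at 0.164, 0.159 and 0.140 at week 18, taken here as possible pairing. At week 12 they correlated at -0.03, -0.10 and 0.09, which was not. The labels state no pairing. The main fits did not use it, and the replicate block is an alternative only. The members and lists were chosen with earlier results of these data known. Named were all members, the list genes past the threshold or else the 2 with the smallest p per comparison, and the 3 genes most like each member of mean 10 or more, of which 1 for Il34 is not reported here. The comparison of levels per length and the single neutrophil markers were added after the data were seen. Reads carried no molecular identifiers.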

Additional observations from a re-analysis of the deposited data

Results flagged for a closer look

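The stem cell libraries lie outside the tumour comparisons, and 4 of the 7 cytokine genes listed there had a higher value in each of the 3 active than in each of the 3 sedentary libraries of week 12. Of all 13513 genes listed with them, 10.4% had this order, and without active replicate 2 the 4 genes still had it, as did 12.7% of all genes. Mean deposited values in active and sedentary stem cells were 149 ± 9.69 and 111 ± 17.2 for Csf1, 19.7 ± 24.2 and 3.19 ± 1.69 for Il1a, 176 ± 185 and 23.8 ± 14.2 for Il1b, and 49.0 ± 22.4 and 12.2 ± 2.40 for Lif (SD, n = 3). In the authors' deposited table the adjusted p was 0.443 for Csf1, 0.227 for Il1a, 0.0315 for Il1b and 0.0479 for Lif. Active replicate 2 holds different reads in the 2 stem cell tables, at 13105 of 13399 shared genes, against 4 genes in each of the other active libraries. Its Il1b value is 387 in the table with the sedentary libraries and 25.5 in the table with the transplant libraries, its Lif value 73.3 and 17.4, its Il1a value 47.6 and 6.70 and its Csf1 value 153 and 121, on separately normalised scales. The other active libraries had 93.7 and 45.9 for Il1b, against 9.64 to 38.0 in the sedentary ones, and 44.7 and 29.1 for Lif, against 10.4 to 14.9. For Il1a they had 5.45 and 5.97 against 1.61 to 4.98, and for Csf1 156 and 138 against 91.6 to 122. The part of this library in the deposited adjusted p was not tested.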

How the results depend on the processing

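With 3 libraries per group, intervals were wide and Csf3 and Il6 were near the counting limit. No member passed the adjusted threshold in any of the 608 fits over all comparisons and settings, where the lowest adjusted p (limma, edgeR or DESeq2) was 0.316 and 1 fit had none. Of 572 alternative values of member differences, 532 kept their sign and 40, of 16 of the 36 differences, did not. The cause was not tested. Genes called over the whole table moved more: at week 12 (99) DESeq2 called 208, the replicate block 0 and leaving out a library 9 to 71. At week 18 (0) DESeq2 called 52, no filter 1, a pseudocount of 0.1 5 and leaving out a library 0 to 5, the 5 without sedentary replicate 1. For the interaction (2) these were 174 by DESeq2, 0 by edgeR, 69 with the replicate block and 0 to 23, the 23 without active replicate 1 of week 18. Between weeks (1) they were 721, 0 by edgeR, 0 with the replicate block and 0 to 10. The replicate block changed no member's call. Neighbouring levels per length that differed (4) numbered 2 to 3 without a doubted tumour.

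Leaving out 1 library turned these log2 differences. At week 12 Csf3 (-0.51) ran from -1.25 to 0.84 and Il1b (-0.26) from -0.70 to 0.31. At week 18 Csf1 (0.22) ran from -0.22 to 0.54, Kitl (0.03) from -0.31 to 0.39, Il6 (0.06) from -0.62 to 0.69 and Lif (0.07) from -0.49 to 0.42. Kitl was also -0.069 with edgeR and -0.068 with DESeq2, and Il6 -0.025 with a pseudocount of 0.1. For the interaction Csf1 (0.06) ran from -0.39 to 0.37, Csf3 (-0.46) from -1.81 to 0.27, Kitl (-0.22) from -0.57 to 0.14 and Tnf (0.28) from -0.26 to 0.64. With edgeR and DESeq2 Csf1 was -0.057 and -0.080 and Csf3 0.60 and 0.56. Between weeks Csf3 (0.39) was -0.30 and -0.32 with these tools, and without 1 library Il6 (0.35) ran from -0.041 to 0.66, Il1a (0.16) from -0.0071 to 0.33, Il1b (0.08) from -0.25 to 0.52, Tnf (-0.17) from -0.44 to 0.074 and Lif (-0.29) from -0.55 to 0.049.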
